A study of Mus musculus with 6 samples.

Results

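The genes of sugar breakdown and of the response to low oxygen were examined in osteoclast precursors, as a list of 40 genes that covers glucose transporters, the enzymes of glycolysis and of the pentose phosphate pathway, the enzymes that regulate them, and the oxygen-sensing factor HIF-1 with several of its target genes. They were picked by gene symbol, and all 40 were found among the 24346 symbols measured. The cells were EGFP+ cells sorted from calvarial bone marrow of CX3CR1-EGFP knock-in mice, in which the *Cx3cr1* promoter drives the green reporter, so the sort takes any cell with an active reporter and not osteoclast precursors alone. All 6 mice were given lipopolysaccharide (LPS, 20 mg/kg), a bacterial product that drives inflammatory bone destruction, in the periosteum of the calvaria. Over the following 5 days, 3 mice received the JAK1 inhibitor ABT-317 by mouth (60 mg/kg, 2 doses per day) and 3 mice received vehicle. No mice without LPS belong to this RNA-Seq experiment. The age and sex of these mice are not given in the sources used here.

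Glycolysis splits glucose into pyruvate in the cytosol, and lactate dehydrogenase turns pyruvate into lactate when flux is high. The pentose phosphate pathway branches off after the first step and yields NADPH, which phagocytes use for the oxidative burst, as well as ribose for nucleotides. HIF-1 is held low by prolyl hydroxylases while oxygen is present, and it activates most glycolytic genes when it accumulates, in hypoxia or in macrophages stimulated with LPS. Macrophages and differentiating osteoclasts are known to raise glycolysis upon activation.

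Values were compared as log2(FPKM + 1), where FPKM is the fragment count scaled by transcript length and library size. A difference is given as JAK inhibitor minus vehicle on that scale, with the standard error from limma fitted over 11301 genes that reached an FPKM of 1 in at least 1 mouse. All 40 genes passed this filter, 39 of them with an FPKM of at least 1 in every mouse. The 6 libraries had 10361 to 10439 genes at an FPKM of at least 1. The most frequent ratio of low values between any pair of libraries was at most 1.17-fold, set by 22 to 44 genes per pair. Read depth itself is not known, because FPKM are already scaled by library size. Read counts were not used here, so no counting intervals can be given. Vehicle-treated mouse 3 stood apart, with the smallest library weight in limma (0.437, against 0.976 to 1.48 in the other mice). Monocyte genes were present in every library, with an FPKM of 23900 to 32890 for *Lyz2*, 2751 to 4617 for *Ly6c2* and 355 to 422 for *Csf1r*. *Mpo* and *Elane*, genes of granulocyte and monocyte progenitors, were also high, with an FPKM of 1649.6 or more for *Mpo* and 1003 or more for *Elane*.

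JAK inhibitor-treated mice had lower values of most abundant glycolytic genes, from *Ldha* at 65.4% of the vehicle mean to *Pgam1* at 92.9%. The pentose phosphate genes lay between 88.2% and 103% of the vehicle mean. Of the 40 genes, 31 had a difference below 0, against 50.6% of all tested genes, and 9 above 0. Their median difference was -0.21, against a median of -0.004 over all genes tested, and it was -0.13 without JAK inhibitor-treated mouse 1. None passed an adjusted p under 0.05 in limma, which 0.133% of all tested genes did (0.0973% lower, 0.0354% higher). At an unadjusted p under 0.05 in limma 16 of the 40 genes were called, against 16% of all tested genes. Of these, 15 were lower, against 9.4% of all tested genes, and 1 was higher, against 6.57%. The 15 became 10 without JAK inhibitor-treated mouse 3, against 7.2% of all tested genes. All JAK inhibitor-treated mice lay below all vehicle-treated mice for 17 of the 40 genes, against 12.1% of all tested genes, and above them for 2, against 9.92%. These 19 genes had p = 0.1 in an exact 2-sided permutation test, and 3 mice against 3 allow no smaller value. Highly expressed genes were more often lower in general: with a mean FPKM of at least 100, 17.7% of 1220 genes were lower at an unadjusted p under 0.05 in limma, as were 10 of the 15 listed genes at that level. Groups without overlap and lower made up 23.5% of the genes at that level, and 11 of the 15.

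**Figure D1:**
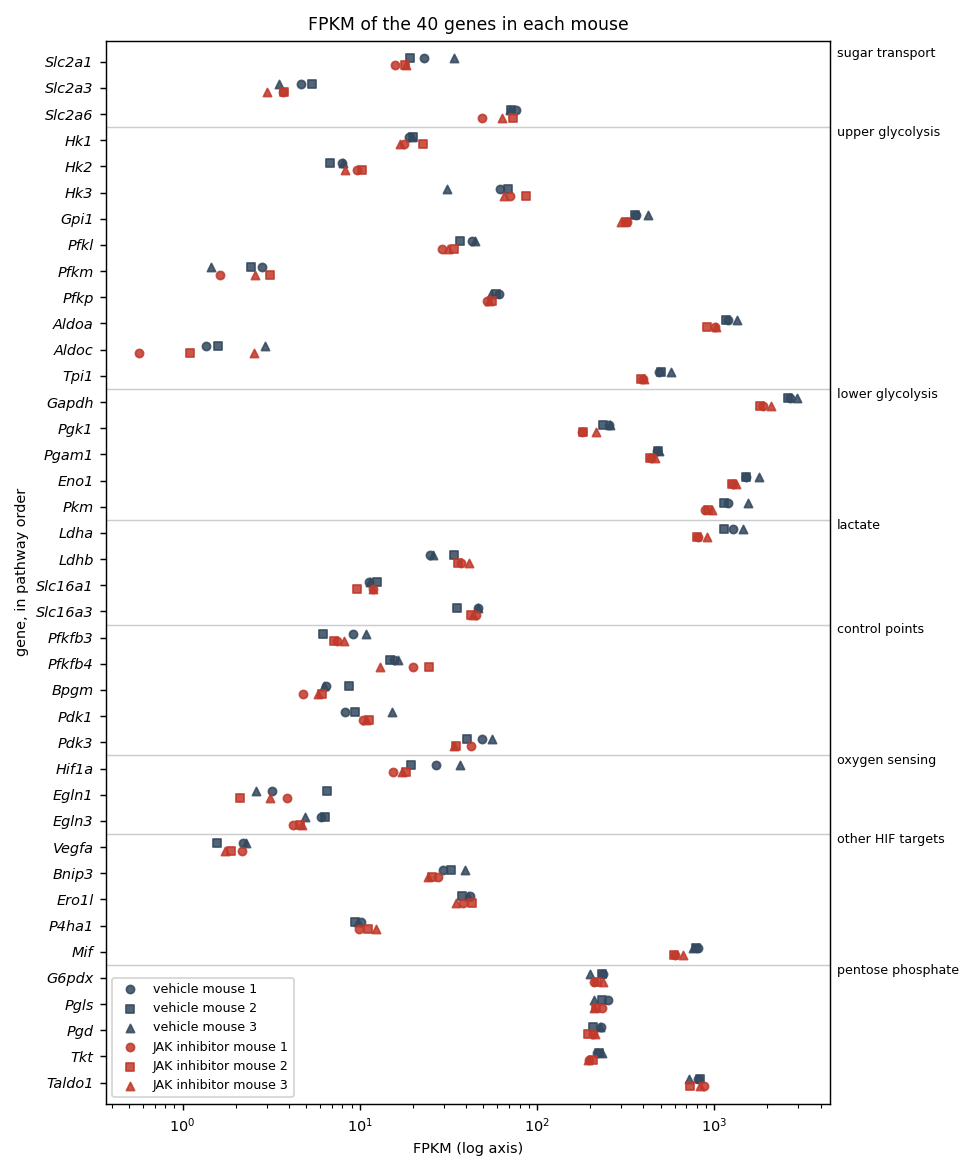
FPKM (log axis) of the 40 genes in each of the 6 mice, in the order of the pathway, with vehicle-treated mice in dark blue and JAK inhibitor-treated mice in red. The abundant enzymes from *Aldoa* to *Ldha* are separated by group, whereas the pentose phosphate genes lie on top of each other except for *Tkt*.

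Sugar enters the cell through transporters of the Slc2a family. *Slc2a1*, which encodes the common glucose transporter GLUT1, was at 23.1, 19.2 and 33.9 FPKM with vehicle, compared with 15.8, 17.9 and 18.3 after JAK inhibitor. The groups did not overlap, and vehicle-treated mouse 3 was the highest. The difference was -0.49 (standard error 0.19, adjusted p = 0.263 in limma), and without that mouse it was -0.26. *Slc2a6*, a transporter of myeloid cells, was the most abundant of the 3 per length and accounted for 71.0% ± 4.94 of their summed FPKM in vehicle-treated and 74.6% ± 2.9 in JAK inhibitor-treated mice (SD, n = 3 each). Its FPKM was 72.7 ± 3.15 under vehicle and 62.3 ± 12.5 under JAK inhibitor (SD, n = 3 each), and the groups overlapped. *Slc2a3*, the high-affinity transporter GLUT3, had only 4.53 ± 0.945 and 3.47 ± 0.426 (SD, n = 3 each), also with overlap.

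Hexokinases trap glucose as glucose 6-phosphate, and none of the 3 genes was lower at an unadjusted p under 0.05. *Hk3*, the form of myeloid cells, was the most abundant of the 3, with an FPKM of 62.3, 69.0 and 31.2 with vehicle and 70.9, 87.0 and 65.2 with JAK inhibitor. Vehicle-treated mouse 3 was well below the other 5 mice, and the groups overlapped. The difference was 0.52 (standard error 0.26, adjusted p = 0.377 in limma), and it was 0.17 without vehicle-treated mouse 3. *Hk2*, the inducible form, had an FPKM of 7.98, 6.79 and 8.05 with vehicle and 9.72, 10.3 and 8.3 with JAK inhibitor, so every JAK inhibitor-treated mouse was higher (difference 0.28, standard error 0.14, adjusted p = 0.388 in limma). *Hk1*, the widespread form, had 19.6 ± 0.498 and 19.1 ± 3.08 (SD, n = 3 each). As a share of the summed hexokinase FPKM, *Hk1* took 21.3%, 20.8% and 33.5% under vehicle, compared with 18.1%, 18.9% and 18.7% under JAK inhibitor. The groups did not overlap in this share, which was highest in vehicle-treated mouse 3.

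The next steps prepare the sugar for splitting. *Gpi1*, which encodes glucose-6-phosphate isomerase, had an FPKM of 365, 357 and 424 under vehicle and 325, 318 and 299 under JAK inhibitor, without overlap (difference -0.28, standard error 0.09, adjusted p = 0.203 in limma). Phosphofructokinase commits the sugar to glycolysis, and its liver-type gene *Pfkl* had 43.0, 36.9 and 44.9 with vehicle and 29.3, 34.0 and 31.5 with JAK inhibitor. These groups also did not overlap (difference -0.38, standard error 0.11, adjusted p = 0.164 in limma). The platelet-type gene *Pfkp*, the more abundant form, had 58.6 ± 3.16 and 54.1 ± 1.85 (SD, n = 3 each) with overlap, and the muscle-type gene *Pfkm* stayed at 3.1 or below. *Pfkl* therefore made up a smaller share of the summed phosphofructokinase FPKM in every JAK inhibitor-treated mouse, at 35.8% ± 0.676 against 40.6% ± 3.4 (SD, n = 3 each).

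**Figure D2:**
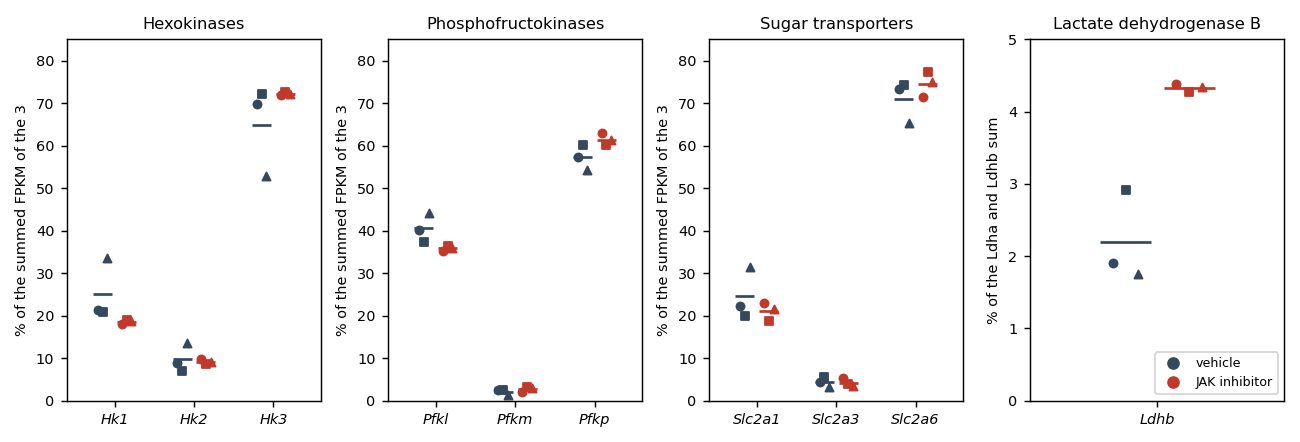
Share of each gene in the summed FPKM of its family, in percent, for hexokinases, phosphofructokinases, sugar transporters and *Ldhb*, with 1 point per mouse and the group mean as a line. The *Ldhb* share lies between 4.27% and 4.38% in JAK inhibitor-treated mice and between 1.75% and 2.92% in vehicle-treated mice.

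Aldolase cleaves the sugar into 3-carbon units. *Aldoa*, the dominant aldolase, had an FPKM of 1209, 1169 and 1349.7 under vehicle and 1015, 910.3 and 1027 under JAK inhibitor, without overlap (difference -0.34, standard error 0.09, adjusted p = 0.152 in limma). *Aldoc*, the brain-type form, was near the limit of the filter, with an FPKM of 0.568 to 2.92, and its groups overlapped. *Tpi1*, which encodes the isomerase that interconverts the products of that split, had 490.2, 499.7 and 574 with vehicle and 399.5, 386 and 402 with JAK inhibitor. The lowest vehicle-treated mouse lay well above the highest JAK inhibitor-treated mouse (difference -0.39, standard error 0.09, adjusted p = 0.109 in limma).

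In the lower part of the pathway, where ATP and NADH are formed, all 5 genes were lower without overlap. Of these 5 genes, 4 passed an unadjusted p under 0.05 in limma. Over all tested genes, 12.1% were lower without overlap and 9.4% were lower at that p. *Gapdh* (chromosome 6, 125161715 to 125166467, minus strand, GENCODE M21 on GRCm38), which encodes the dehydrogenase that forms NADH, had the highest level of the 40 genes. It reached 2678, 2629 and 2937 FPKM under vehicle, compared with 1902, 1824 and 2095 under JAK inhibitor, so the JAK inhibitor mean was 70.6% of the vehicle mean. The difference was -0.50 (standard error 0.09, unadjusted p = 0.000448, adjusted p = 0.0886 in limma). *Gapdh* is also a common reference gene for RT-qPCR. *Pgk1*, whose enzyme forms the first ATP, had 255, 238 and 259 with vehicle and 180.2, 182 and 217 with JAK inhibitor (difference -0.38, standard error 0.10, adjusted p = 0.131 in limma).

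*Pgam1*, the phosphoglycerate mutase gene, differed least among these 5, with an FPKM of 482 ± 6.73 and 448 ± 17.9 (SD, n = 3 each) and a difference of -0.11 (standard error 0.08, adjusted p = 0.535 in limma). *Eno1*, the main enolase gene, had 1521, 1509 and 1789 with vehicle and 1282, 1274 and 1333 with JAK inhibitor (difference -0.31, standard error 0.09, adjusted p = 0.175 in limma). *Pkm*, which encodes the pyruvate kinase of most cells other than liver and red cells, had 1203, 1143 and 1558 with vehicle and 894, 926 and 975 with JAK inhibitor. Vehicle-treated mouse 3 was the highest for all 5 genes of this part. For *Pkm* the difference was -0.47 (standard error 0.12, adjusted p = 0.133 in limma), and it was -0.33 without that mouse. The gene tables do not separate the M1 and M2 splice forms of *Pkm*.

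The lactate dehydrogenase genes went in opposite directions. *Ldha* (chromosome 7, 46841475 to 46855627, plus strand), whose subunit favors lactate formation, had an FPKM of 1286, 1139 and 1456 under vehicle and 818, 805 and 914 under JAK inhibitor. It had the smallest p of the 40 genes, with a difference of -0.61 (standard error 0.11, unadjusted p = 0.000335, adjusted p = 0.0823 in limma). The adjusted p was 0.0368 without vehicle-treated mouse 2 and 0.0449 without vehicle-treated mouse 3, and it ranged from 0.0319 to 0.270 over the 15 alternatives in limma. *Ldhb* (chromosome 6, 142490249 to 142507957, minus strand), whose subunit favors the reverse reaction, had 25.1, 34.2 and 25.9 with vehicle and 37.5, 35.9 and 41.5 with JAK inhibitor. It was the gene of the list that was higher at an unadjusted p under 0.05 (difference 0.43, standard error 0.14, unadjusted p = 0.0116, adjusted p = 0.186 in limma). The ratio of *Ldha* to *Ldhb* FPKM, which a scaling factor per library leaves as it is, came to 51.3, 33.3 and 56.1 under vehicle, compared with 21.8, 22.4 and 22.0 under JAK inhibitor. It varied more among vehicle-treated mice, and every one of them was above every JAK inhibitor-treated mouse. *Slc16a3*, the monocarboxylate transporter that exports lactate, had 42.8 ± 6.45 and 43.7 ± 1.4 (SD, n = 3 each). *Slc16a1*, a related transporter, had 11.8 ± 0.647 and 11.1 ± 1.25 (SD, n = 3 each), and both overlapped.

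The sequences upstream of *Ldha*, *Ldhb*, *Gapdh* and *Hif1a* are shown because *Ldha* and *Ldhb* differed in opposite directions, *Gapdh* had the highest level, and *Hif1a* encodes the factor that binds the motif searched. Each run holds the 250 bases before a RefSeq start site on GRCm38.p6, 5′ to 3′ on the strand of the gene, and capitals mark every ACGTG or GCGTG, the core of the HIF response element, on either strand. Matches that overlap are joined, and CACGTG holds ACGTG on both strands. The windows of *Ldha*, *Gapdh* and *Hif1a* lie within introns of longer GENCODE M21 transcripts that start further upstream.
Ldha, chr7:46845554-46845803, plus strand, the first of its 2 windows: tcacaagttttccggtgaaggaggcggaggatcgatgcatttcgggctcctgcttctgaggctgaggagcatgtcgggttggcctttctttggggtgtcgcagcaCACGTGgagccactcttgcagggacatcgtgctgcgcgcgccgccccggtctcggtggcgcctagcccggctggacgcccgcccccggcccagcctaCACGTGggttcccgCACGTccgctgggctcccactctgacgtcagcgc
Ldhb, chr6:142507958-142508207, minus strand: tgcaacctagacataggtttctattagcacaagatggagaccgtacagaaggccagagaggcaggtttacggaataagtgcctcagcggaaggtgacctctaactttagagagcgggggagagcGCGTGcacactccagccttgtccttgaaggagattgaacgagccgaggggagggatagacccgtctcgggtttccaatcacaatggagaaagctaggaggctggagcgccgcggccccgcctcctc
Gapdh, chr6:125165774-125166023, minus strand: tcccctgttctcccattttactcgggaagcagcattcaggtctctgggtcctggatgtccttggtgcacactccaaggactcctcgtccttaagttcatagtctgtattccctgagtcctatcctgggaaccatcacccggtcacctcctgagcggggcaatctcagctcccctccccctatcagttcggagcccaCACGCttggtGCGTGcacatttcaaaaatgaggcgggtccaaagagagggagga
Hif1a, chr12:73907617-73907866, plus strand: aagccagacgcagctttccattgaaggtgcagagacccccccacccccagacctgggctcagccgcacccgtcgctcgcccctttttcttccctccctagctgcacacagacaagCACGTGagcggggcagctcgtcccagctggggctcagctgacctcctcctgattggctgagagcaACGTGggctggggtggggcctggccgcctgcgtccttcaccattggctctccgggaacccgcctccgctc

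The first *Ldha* window held 3 marked runs, which began 145, 48 and 34 bases before the start site, and 2 of them were the palindrome CACGTG. *Gapdh* had 2 runs, which began 54 and 44 bases before its start, and *Hif1a* had 2, which began 135 and 70 bases before. *Ldhb* had 1 run and no ACGTG. The second *Ldha* window, not shown, likewise had 1 run, which began 59 bases before its start, and no ACGTG. Promoter windows that run from 250 bases before to 50 bases after the start were found for 38 of the 40 genes, with no entry for *Slc2a3* and *Ero1l*. At least 1 of both motifs was present in 81.1% of the 53 windows of these 38 genes, in 43.8% of all 32851 windows and in 62.2% of the 10908 windows of tested genes. Of the 17 genes that were lower without overlap 14 had such a window, and of the other 21 genes with a window all 21 did. These counts are per gene, over all windows of a gene, so the shares per window are no reference for them. A STAT-type motif, TTCNNNGAA, was present in 3.77% of the windows of the listed genes, in 8.3% of all windows and in 7.1% of the windows of tested genes.

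**Figure D3:**
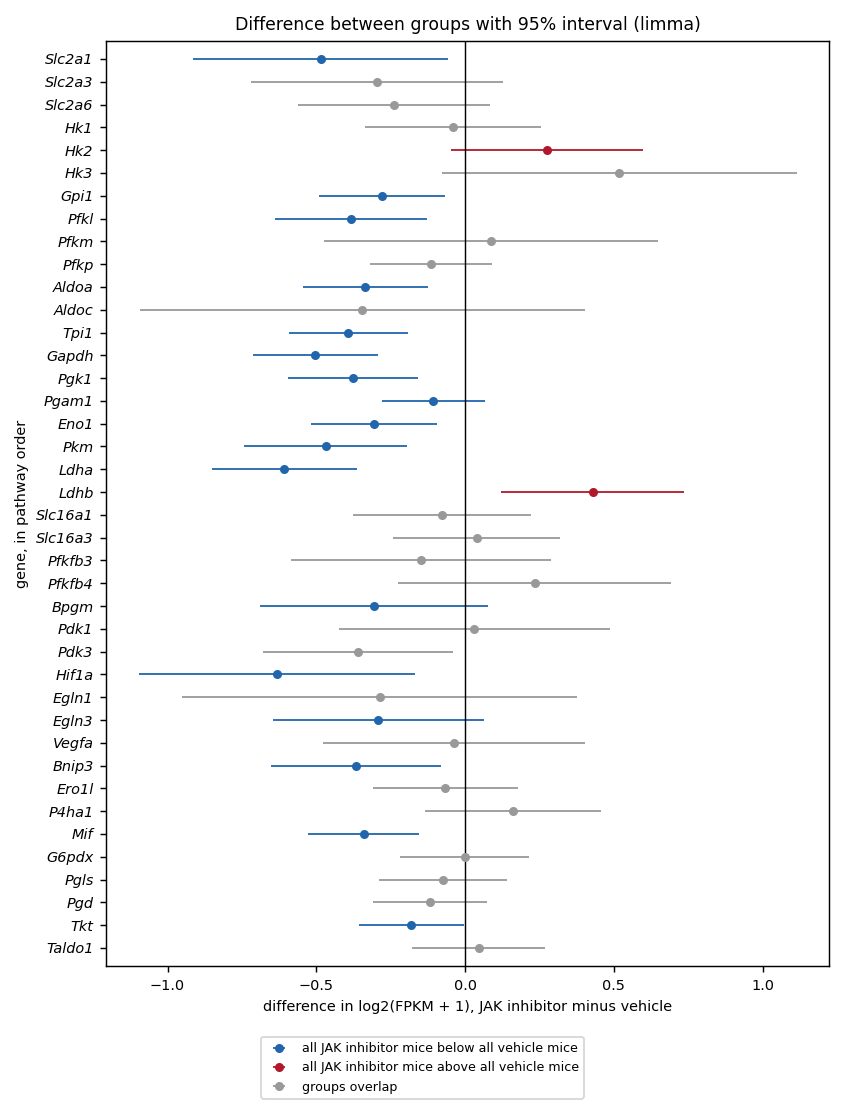
Difference in log2(FPKM + 1), JAK inhibitor minus vehicle, for the 40 genes in pathway order, with the 95% interval from limma as a bar. Blue points are the 17 genes whose JAK inhibitor-treated mice all lie below the vehicle-treated mice, red points the 2 genes with the opposite order, and grey points the genes whose groups overlap.

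Of the 5 genes at control points of glycolysis, 1 was lower at an unadjusted p under 0.05 and none was higher. Over all tested genes 9.4% were lower and 6.57% higher at that p. *Pdk3*, a kinase that keeps pyruvate out of mitochondria by inhibiting pyruvate dehydrogenase, had an FPKM of 49.3, 40.3 and 55.6 with vehicle and 42.7, 35.2 and 34.1 with JAK inhibitor. Its groups overlapped (difference -0.36, standard error 0.14, unadjusted p = 0.0312, adjusted p = 0.264 in limma). *Pdk1*, a kinase of the same family and a HIF-1 target, had 8.26, 9.44 and 15.2 with vehicle and 10.5, 11.3 and 10.8 with JAK inhibitor, with overlap. *Bpgm*, which diverts an intermediate to 2,3-bisphosphoglycerate, had 6.49, 8.68 and 6.33 with vehicle and 4.79, 6.09 and 5.86 with JAK inhibitor, without overlap but with an adjusted p of 0.421 in limma. *Pfkfb3* and *Pfkfb4* encode enzymes that set the level of the phosphofructokinase activator fructose 2,6-bisphosphate. *Pfkfb3* had 8.72 ± 2.37 and 7.6 ± 0.531, and *Pfkfb4* had 15.7 ± 0.79 and 19.2 ± 5.87 (SD, n = 3 each), both with overlap.

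*Hif1a* encodes the oxygen-regulated subunit of HIF-1, and its mRNA is also raised by inflammatory signals. It was at 27.0, 19.5 and 37.0 FPKM under vehicle, compared with 15.4, 18.3 and 17.4 under JAK inhibitor, so the groups were separated by a narrow gap, between vehicle-treated mouse 2 and JAK inhibitor-treated mouse 2. The difference was -0.63 (standard error 0.20, unadjusted p = 0.013, adjusted p = 0.192 in limma). It was -0.41 without vehicle-treated mouse 3 and -0.86 without vehicle-treated mouse 2. The protein is controlled mainly by its stability, which RNA-Seq does not measure. *Egln3*, a prolyl hydroxylase gene that HIF-1 itself activates, had 6.03, 6.34 and 4.9 with vehicle and 4.18, 4.59 and 4.74 with JAK inhibitor, without overlap (difference -0.29, standard error 0.16, adjusted p = 0.407 in limma). *Egln1*, the main oxygen sensor, had 4.11 ± 2.09 and 3.04 ± 0.885 (SD, n = 3 each) and overlapped.

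Among the other HIF targets, *Mif* and *Bnip3* were lower without overlap, whereas *Vegfa*, *Ero1l* and *P4ha1* overlapped. *Mif*, which encodes a cytokine that inhibits macrophage migration, had an FPKM of 811, 793 and 767 under vehicle and 606, 598 and 669 under JAK inhibitor. Its difference was -0.34 (standard error 0.08, unadjusted p = 0.00257, adjusted p = 0.118 in limma), and vehicle-treated mouse 3 was here the lowest of its group. *Bnip3*, a gene of mitophagy, had 29.6, 32.7 and 39.3 with vehicle and 27.7, 25.6 and 24.3 with JAK inhibitor (difference -0.37, standard error 0.13, adjusted p = 0.211 in limma). *Vegfa*, the angiogenic factor that is a standard readout of HIF-1, was barely expressed, with 2.01 ± 0.393 and 1.92 ± 0.222 (SD, n = 3 each). *Ero1l*, an oxidase of protein folding, had 40.4 ± 2.16 and 38.7 ± 3.93, and *P4ha1*, a collagen prolyl hydroxylase gene, had 9.81 ± 0.404 and 11.1 ± 1.16 (SD, n = 3 each). For *Vegfa* the 95% interval of the difference ran from -0.48 to 0.40, so a difference of that size in either direction was not excluded.

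In the pentose phosphate pathway, 4 of 5 genes overlapped between the groups and 1 was lower without overlap. Over all tested genes 12.1% were lower and 9.92% higher without overlap, so most genes overlapped there as well. *G6pdx*, which encodes the rate-limiting dehydrogenase and the first source of NADPH, had an FPKM of 238, 232 and 200.1 under vehicle and 212, 220.1 and 236 under JAK inhibitor. The mice of both groups were interspersed, and the 95% interval of the difference ran from -0.22 to 0.22. *Pgls*, the lactonase gene, had 253, 232 and 211 with vehicle and 233, 216 and 210.0 with JAK inhibitor. *Pgd*, the gene of the next NADPH-forming dehydrogenase, had 223 ± 12.9 and 205 ± 9.38 (SD, n = 3 each). *Taldo1*, the transaldolase gene and the most abundant of these, had 809, 831 and 724 with vehicle and 877, 734 and 831 with JAK inhibitor. *Tkt*, the transketolase gene, was the exception, with 220.1, 224 and 234 against 197, 207 and 195 and a difference of -0.18 (standard error 0.08, unadjusted p = 0.0469, adjusted p = 0.304 in limma). That call was lost in several alternatives: it did not pass an unadjusted p of 0.05 in 9 of 15 alternatives, among them leaving out any of 5 mice, with differences of -0.21 to -0.15 over all mice left out.

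The 17 enzymes from hexokinase to lactate dehydrogenase together took 1.25%, 1.27% and 1.47% of all FPKM under vehicle, compared with 0.986%, 1.06% and 1.07% under JAK inhibitor. The 5 pentose phosphate enzymes took 0.226%, 0.233% and 0.212% with vehicle and 0.227%, 0.228% and 0.228% with JAK inhibitor. The first share did not overlap between the groups and the second did, and the ratio of both sums was 5.54, 5.44 and 6.9 with vehicle and 4.33, 4.65 and 4.72 with JAK inhibitor. No test was made on these sums.

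**Figure D4:**
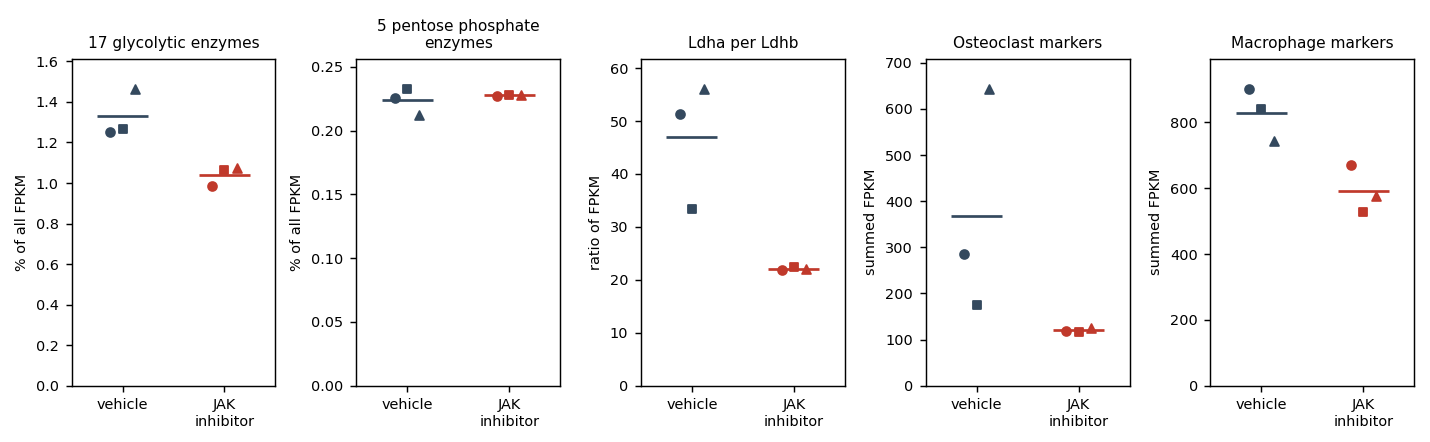
Values per mouse, with the group mean as a line, of the share of all FPKM held by 17 glycolytic and by 5 pentose phosphate enzymes, the ratio of *Ldha* to *Ldhb*, and the summed FPKM of 8 osteoclast and 10 macrophage marker genes. The glycolytic share, the ratio and both marker sums are separated by group, and the pentose phosphate share is not.

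Vehicle-treated mouse 3 had the highest value for 20 of the 40 genes and for 14 of the 17 that were lower without overlap. Without it, 14 genes were lower at an unadjusted p under 0.05, against 8.12% of tested genes, and the median difference was -0.155. Of the 10 marker lists for cell types and proliferation, 4 had sums that did not overlap between the groups (osteoclast, macrophage, erythroid, and T and NK cell), and the other 6 overlapped. No reference share was computed for such sums. For the counts of called marker genes below, the shares over all tested genes were 9.4% lower and 6.57% higher at an unadjusted p under 0.05 in limma. Osteoclast markers summed to an FPKM of 286, 175 and 644 with vehicle, the last in mouse 3, and 117 to 124 with JAK inhibitor. Of 7 tested genes 6 were lower at an unadjusted p under 0.05, and *Calcr*, a gene of mature osteoclasts, was at 0 in every mouse. Vehicle-treated mouse 3 had the lowest *Cx3cr1* of all mice (15.5 FPKM, against 29.5 to 36.1 in the others). It was also lowest for *Ly6c2*, *Irf8*, *Elane* and *Mpo*, but not for *Csf1r*, *Ccr2* or *Lyz2*. Macrophage markers summed to 744 to 903 with vehicle and 527 to 669.6 with JAK inhibitor, with 5 of 10 genes lower. Monocyte and precursor markers, most of it *Lyz2*, summed to 28349 to 37660 and 28987 to 38365, with 3 of 10 genes lower and 1 higher. *Fcgr1*, *Cd14* and *Itgam* were the lower genes, *Itgam* with overlap, and *Irf8* was the higher gene. Neutrophil markers summed to 17123 to 23224 and 17239 to 24366, with *Camp*, *Elane* and *Mpo* higher and *Mmp8* and *Cxcr2* lower. *Mki67* and the other proliferation markers summed to 780.1 to 963 and 832 to 876, with 1 of 8 genes lower. Erythroid markers summed to 0.749 to 3.52 and 6.68 to 52.2, and T and NK cell markers, most of it *Nkg7*, to 203 to 373 and 491 to 573. Of 5 tested erythroid genes 2 were higher (*Hba-a1* and *Klf1*) and none was lower. In the T and NK cell list 3 of 6 tested genes were below 0. *Gzma* was lower (-2.09, unadjusted p = 0.0293, adjusted p = 0.257 in limma) with overlap. *Nkg7* was higher (0.92, unadjusted p = 0.00503, adjusted p = 0.147 in limma) without overlap. B cell markers summed to 28.3 to 33.1 and 31.6 to 35.8, with *Ms4a1* and *Pax5* at 0, dendritic cell markers to 69.1 to 104 and 83.0 to 97.6, and stromal markers to 3.15 to 7.07 and 5.99 to 6.44, with *Sp7* at 0. Of 6 tested dendritic cell genes 1 was higher, *Cd209a*, with overlap, and none was lower. None of the tested B cell and stromal genes was called. The part of these cells in the glycolytic values was not tested, and in bulk samples fewer cells of a type and less RNA per cell cannot be told apart.

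A further 107 genes of the same pathways, from glycogen to pyruvate entry and HIF regulation, gave no common direction. Of the 74 that passed the filter, 8 were lower and 9 higher at an unadjusted p under 0.05, against 9.4% and 6.57% of all tested genes. The median difference was -0.01, and 0 passed an adjusted p under 0.05 in limma. On the lower side were *Mpc1*, a subunit of the mitochondrial pyruvate carrier, with an FPKM of 245 ± 16.6 under vehicle and 194 ± 12.1 under JAK inhibitor (SD, n = 3 each, difference -0.34), and *Galm*, which interconverts the forms of glucose and galactose (-0.55). *Pgp*, a phosphatase that removes side products of glycolysis (-0.20), *Slc2a8*, a glucose transporter gene whose groups overlapped (-0.45), *Prps1*, which makes ribose available for nucleotides (-0.25), and *Plod1*, a collagen lysyl hydroxylase gene (-0.29), were lower as well. Of the 15 alternatives, the call was lost in 11 for *Plod1*, 10 for *Pgp*, 7 for *Slc2a8* and 6 for *Prps1*. *Ddit4*, a stress-induced inhibitor of mTORC1, had 1.07, 1.41 and 2.62 with vehicle and 0.34, 0.336 and 0.452 with JAK inhibitor (-0.93, standard error 0.26, adjusted p = 0.152 in limma). These values lie near or below the pseudocount, and with a pseudocount of 0.1 the difference of *Ddit4* was -1.83. *Arrdc4*, a glucose-responsive arrestin, had a difference of -0.80 with overlap, which was -0.47 without vehicle-treated mouse 3 and -0.50 with library weights, and its call was lost in 7 of 15 alternatives.

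On the higher side, *Eno3*, the muscle-type enolase gene, had an FPKM of 60.5 ± 38.6 under vehicle and 136 ± 23.5 under JAK inhibitor (SD, n = 3 each), and vehicle-treated mouse 3 was by far the lowest at 18.8. The groups did not overlap, and *Eno3* was the opposite of *Eno1* in direction (difference 1.42, standard error 0.48, adjusted p = 0.209 in limma), although it was 0.74 without vehicle-treated mouse 3. Among 20 tested genes of the further hypoxia list, 10 were below 0 and 10 above, with a median of 0.02. Of these, *Wsb1* (0.43), *Ccng2* (0.44), *Ndrg1* (0.55) and *Mxi1* (0.31) were higher without overlap, and *Ddit4*, *Plod1* and *Higd1a* were lower without overlap, *Higd1a*, named after its values were seen, with an unadjusted p above 0.05. Over all tested genes 50.6% were below 0, and without overlap 9.92% were higher and 12.1% lower. *Gbe1*, the glycogen branching enzyme gene (0.36), *Pck2*, a mitochondrial enzyme of gluconeogenesis (0.47), *G6pc3*, a glucose-6-phosphatase gene (0.38), and *Slc16a7*, a monocarboxylate transporter gene (0.90), completed this side. *Slc16a7* overlapped between the groups, and *Gbe1*, *Pck2* and *G6pc3* did not. *Pck2* was at 0.23 without vehicle-treated mouse 3. Of the 15 alternatives, the call was lost in 7 for *Pck2*, 6 for *Slc16a7*, 5 for *Gbe1*, 5 for *Mxi1*, 3 for *Eno3*, and 1 each for *G6pc3* and *Ndrg1*.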

How the data were processed

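RNA-Seq was performed on sorted EGFP+ cells of 3 JAK inhibitor-treated and 3 vehicle-treated mice. The sources differ on the library kit, a stranded TruSeq kit in the methods and SMART-Seq HT with Nextera in the labels. Reads were single-end. The authors deposited FPKM, 1 table per mouse with 24346 gene symbols. The submitters' processing notes name TopHat2 2.0.13, Bowtie2 2.2.3, SAMtools 0.1.19, Cufflinks 2.2.1 and mm10. The annotation, options and treatment of reads with several matches are not given in the sources used here, so values shared with near-identical copies are uncertain. *Eno1b*, a copy of *Eno1*, had an FPKM of 3.75 to 5.83. Exons of 12 listed genes overlap those of an opposite-strand gene in GENCODE M21, and without strand such reads cannot be told apart. Where measured, these genes had a vehicle mean of at most 21.8 FPKM. Only *Senp1* was above the listed gene it overlaps, with means of 8.65 under vehicle and 11.3 under JAK inhibitor. Those of *Pfkm* were 2.23 and 2.43, so its values are the most uncertain in this respect.

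The deposited FPKM were transformed here to log2(FPKM + 1), and genes that reached 1 FPKM in any mouse were kept. Groups were compared with limma 3.58.1 in R 4.3.3 (eBayes with the mean-variance trend, p-values adjusted over 11301 genes by Benjamini-Hochberg). For each gene of the list, group labels were also permuted exactly, 2-sided. Libraries come from 3 mice per group, and p-values measure the spread between mice. The numbers 1 to 3 name separate mice in each group, so the main fit had no replicate block. The correlations of same-numbered deviations were 0.02, 0.05 and -0.0002, and those of the other pairs were -0.038 to 0.0188. With 3 mice per group these values cannot tell whether same-numbered mice shared a day or batch. Shares and sums had no test. The alternatives tried were another pseudocount, 2 filters, 3 scalings, no trend, library weights, a replicate block and each mouse left out. Every listed gene is named, as is each gene of the wider pathway list with an unadjusted p under 0.05. The genes and lists were chosen with earlier results of these data known. Promoters and motifs are from RefSeq sequences of GRCm38.p6, and positions of genes from GENCODE M21 on GRCm38, the same build as mm10. Tables were handled in Python 3.11.15 with SciPy 1.17.1, and plots drawn with matplotlib 3.10.9.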

Additional observations from a re-analysis of the deposited data

How the results depend on the processing

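Of the 16 genes with an unadjusted p under 0.05, all 16 kept their direction under the 15 alternatives and 11 stayed past that threshold in each. The exceptions were *Slc2a1*, *Gpi1*, *Pdk3*, *Bnip3* and *Tkt*. *Gpi1* and *Bnip3* lost it without JAK inhibitor-treated mouse 3 alone (adjusted p = 0.442 and 0.4395 in limma), *Slc2a1* in 6 alternatives and *Pdk3* in 5, mostly with a mouse left out. A further 5 genes (*Slc2a3*, *Slc2a6*, *Hk3*, *Pfkfb4* and *Egln3*) passed it under some alternative only. The lower genes numbered 12 without the trend, against 8.19% of all tested genes. With a mouse left out they numbered 10 to 14, against 7.2% to 9.49% of all tested genes. The number of listed genes past an adjusted p under 0.05 in limma was 0, and it was 1 with library weights (*Ldha*, adjusted p = 0.0441) and 0 to 1 with a mouse left out, where the gene was *Ldha*. With the replicate number as a block it was 2 (*Ldha*, adjusted p = 0.0319, and *Gapdh*, adjusted p = 0.0436), and 2 genes were higher at an unadjusted p under 0.05 (*Ldhb* and *Hk3*). The numbers share no animal, and over all genes 67 passed the adjusted threshold under the block against 15 without it. Over all genes the count was 2 without the trend and 2 without a filter, 34 with the stricter filter, 35 with housekeeping scaling, 63 with library weights and 3 to 95 with a mouse left out.

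With a mouse left out, the listed genes higher at an unadjusted p numbered 1 to 2 and those higher without overlap 2 to 4, and 1 was higher without overlap under housekeeping scaling. For the higher side, no share over all tested genes was computed in any alternative, so these counts have no reference. The share of all tested genes that were lower without overlap was 12.1% in the main fit and 16.6% to 18.5% with a mouse left out. Of the 74 tested genes of the wider pathway list, 5 were lower with quantile normalization and 5 without the trend. The shares of all tested genes lower at an unadjusted p were 8.12% and 8.19% in these settings. With a mouse left out, 4 to 8 genes of this list were lower and 4 to 9 higher. Over all tested genes 7.2% to 9.49% were lower there. Direction changed under some alternative for 11 listed genes, by values of at most 0.131 in size. With quantile normalization *G6pdx* was at 0.0543 and with median ratio scaling at 0.00539, with library weights *Pfkm* was at -0.0109, and with housekeeping scaling *Slc16a3* was at -0.0297, *Pdk1* at -0.0344 and *Taldo1* at -0.0253. With a mouse left out, the differences ran from -0.16 to 0.0369 for *Hk1*, -0.10 to 0.27 for *Pfkm*, -0.12 to 0.0118 for *Slc16a1*, -0.0893 to 0.11 for *Slc16a3*, -0.35 to 0.0114 for *Pfkfb3*, -0.13 to 0.27 for *Pdk1*, -0.50 to 0.0274 for *Egln1*, -0.15 to 0.0268 for *Vegfa*, -0.14 to 0.0012 for *Ero1l*, -0.0786 to 0.046 for *G6pdx* and -0.0148 to 0.12 for *Taldo1*. The cause of these changes was not tested. Read depth is not known, so no limit from counting can be given.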
